A study of Mus musculus with 39 samples.

Results

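Collagens are the triple-helical proteins of the extracellular matrix, and each of their chains is coded by a gene of its own. All genes with a symbol of the form Col, number, a, number were taken from the mouse RPKM tables analysed here (RPKM counts reads per kilobase of a gene's model and is divided by a library size that the authors scaled). That gave 43 of the 16979 genes in the larger table, which holds 32 libraries, and 41 of the 13938 genes in the table of the fixation experiment, which holds 7 libraries. Col10a1 and Col9a3 are listed in the larger table only. By the structure of the protein, 11 genes code for fibrillar chains, 6 for type IV chains of basement membranes, 6 for type VI chains of beaded filaments, 8 for fibril-associated chains, 2 for multiplexins, 4 for transmembrane collagens and 6 for other types.

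A collagen molecule is a helix of 3 chains, folded in the endoplasmic reticulum with the help of prolyl and lysyl hydroxylases and the chaperone Serpinh1, then secreted, trimmed and cross-linked. Types I and III are the main fibrils of the connective tissue around muscle fibres, and type V sits in those fibrils and controls their diameter. Type IV forms the network of the basement membrane that wraps each muscle fibre and the satellite cell lying against it, and type VI filaments lie beside that membrane. Muscle stem cells, or satellite cells, make part of this matrix themselves, while fibroblasts, fibro-adipogenic progenitors, tenocytes, endothelial cells and Schwann cells make the rest. Collagen V is also known as a signal that helps to hold satellite cells in quiescence.

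The animals of the labelling experiment were Pax7CreER/+: UPRTHA/+ mice, in which a recombinase made by Pax7-expressing satellite cells turns on UPRT, an enzyme by which a cell builds 4-thiouracil (4tU), a uracil analogue, into the RNA it makes. In 3 groups 4tU was given to the animal, as 1 exposure 6 h before harvest, every 12 h for 1 d, or every 12 h for 4 d, and hindlimb muscle RNA was the source from which the labelled RNA was pulled (below, 6 h, 1 d and 4 d label). In 1 group 4tU was present while stem cells were isolated, for about 6 h, and labelled RNA was pulled down from the purified cells (isolation label). Total RNA of hindlimb muscle and of isolated stem cells was sequenced as input. In another pair of groups, stem cells were isolated in the presence of alpha-amanitin, which blocks RNA polymerase II, or of DMSO, its solvent. In the fixation experiment, stem cells were sorted from mice perfused with 1% paraformaldehyde or from unfixed controls, and the labels used here give no genotype for these mice. Every group had 4 libraries except the unfixed controls with 3. The labels give no ages. Nothing in them says that replicates come from different animals, so a p-value here reflects the spread between libraries alone, which may be technical.

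The recovered reads per library ran from 2321903 in replicate 2 of the isolation label to 102619074 in replicate 3 of muscle input. GEO's labels call the cells of the in vivo pull-downs muscle stem cells, although the RNA was pulled from whole muscle. The defining satellite cell gene Pax7 stood at 0.115 to 0.402 RPKM in these 12 libraries, against 0.0768 to 0.1001 in muscle input and 16.9 to 19.4 in isolated cells. A list of 20 muscle fibre genes held 12.02% to 12.24% of reads at 6 h, 21.55% to 21.95% at 1 d and 21.06% to 21.83% at 4 d. In muscle input it held 19.91% to 20.32%. Its summed RPKM at 1 d (162000 to 176800) and 4 d (167800 to 179100) overlapped that of muscle input (174100 to 183000). At 6 h it was lower (86930 to 94690). A list of 14 satellite cell genes, Pax7 among them, did not follow Pax7 at each time. It summed to 848 to 878 RPKM at 6 h, 1438 to 1471 at 1 d and 1700 to 1794 at 4 d. The sum was 1524 to 1621 RPKM in muscle input and 2181 to 2259 in isolated cells. By share of reads, 1 d lay above muscle, at 0.389% to 0.406% against 0.363% to 0.371%. In 3 groups libraries stood apart. Replicate 1 with alpha-amanitin had 1.06% of reads on the muscle fibre list where replicates 2 to 4 had 2.63% to 3.23%. Replicate 1 of the fixed cells had 0.631% of reads on collagens where the other fixed libraries had 1.31% to 2.06%. Isolation label replicates 2 and 3 had 9.11% and 9.77% of reads on the muscle fibre list where replicates 1 and 4 had 2.93% and 3.11%.

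The promoters of 4 genes that carry the differences below are shown first, so that the fibrillar chains Col3a1, Col5a1 and Col5a3 and the anchoring fibril chain Col7a1 can be set beside one another. Each is the run of 250 bases that ends just before the gene's start in RefSeq annotation of GRCm38.p6, written 5′ to 3′ on the gene's strand. Capitals mark matches on either strand to CCAAT, to the GC box GGGCGG and to TATAAA. The windows are chr1:45311288-45311537 on the plus strand for Col3a1, chr2:27886175-27886424 on the plus strand for Col5a1, chr9:20815068-20815317 on the minus strand for Col5a3 and chr9:108953336-108953585 on the plus strand for Col7a1.
Col3a1: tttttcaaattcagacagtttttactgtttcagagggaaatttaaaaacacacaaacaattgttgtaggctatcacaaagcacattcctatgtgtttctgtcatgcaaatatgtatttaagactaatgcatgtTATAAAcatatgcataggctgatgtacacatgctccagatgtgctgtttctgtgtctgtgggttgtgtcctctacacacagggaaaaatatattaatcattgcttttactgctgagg
Col5a1: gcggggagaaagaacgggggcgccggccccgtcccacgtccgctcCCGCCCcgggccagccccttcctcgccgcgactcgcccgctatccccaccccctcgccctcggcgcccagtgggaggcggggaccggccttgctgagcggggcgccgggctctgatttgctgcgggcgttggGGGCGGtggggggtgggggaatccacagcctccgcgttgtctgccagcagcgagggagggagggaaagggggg
Col5a3: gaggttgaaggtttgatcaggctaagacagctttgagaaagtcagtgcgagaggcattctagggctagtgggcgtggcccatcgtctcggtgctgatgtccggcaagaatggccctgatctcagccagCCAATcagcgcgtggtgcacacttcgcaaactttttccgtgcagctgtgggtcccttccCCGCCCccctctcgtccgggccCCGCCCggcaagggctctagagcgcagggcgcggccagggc
Col7a1: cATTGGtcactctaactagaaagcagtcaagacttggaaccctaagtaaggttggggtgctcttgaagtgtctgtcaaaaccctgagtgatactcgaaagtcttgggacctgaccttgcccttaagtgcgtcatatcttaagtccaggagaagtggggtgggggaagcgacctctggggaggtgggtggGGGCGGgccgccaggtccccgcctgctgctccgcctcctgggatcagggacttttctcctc

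The Col3a1 window held TATAAA and no GC box, with 35.2% G and C. The Col5a1 window held 2 GC boxes in 76.4% G and C, the Col5a3 window 2 GC boxes and CCAAT, and the Col7a1 window 1 GC box and CCAAT. Promoters of 34 collagen genes were found in RefSeq, in 37 windows. Of these, 56.8% held GGGCGG or its reverse CCGCCC, against 32.7% of all 32851 windows. The shares with CCAAT or ATTGG (35.1% against 33.8%) and with TATAAA or TTTATA (13.5% against 12.4%) lay close to those of all windows. The type IV genes stand head to head in pairs. Col4a1 and Col4a2 overlap by 22 bases at their starts on chromosome 8, Col4a4 and Col4a3 lie 71 bases apart on chromosome 1, and Col4a6 and Col4a5 lie 1308 bases apart on the X chromosome. Whether counting used strand is not stated in the labels, but exon bases shared with another gene made up at most 6.07% of any collagen gene's length.

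Whole muscle held little collagen RNA for its reads, and isolated stem cells held more of it and in another mixture. Collagen genes took 0.0854% to 0.0971% of reads in muscle input and 1.01% to 1.03% in isolated stem cells. The summed collagen level was 182 RPKM in muscle, 192 at 6 h, 264 at 1 d and 199 at 4 d of label. Isolated cells had 729.5 RPKM, the isolation label 448, and the totals were 1159 with DMSO and 1497 with alpha-amanitin. In the fixation table, which was normalised separately, it was 1607 RPKM in unfixed and 1850 RPKM in fixed cells. In bulk RNA, fewer cells of a type and less RNA per cell cannot be told apart.

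Fibrillar chains made up 71.1% of the collagen RPKM in muscle, 65.8% at 6 h, 69.4% at 1 d and 66.2% at 4 d of label, but 46.8% in isolated cells. Type IV chains made up 11.6% in muscle and 18.1%, 15.8% and 14.2% in the 6 h, 1 d and 4 d label, against 28.5% in isolated cells. Type VI chains made up 11.2% in muscle and 15.3% in isolated cells. The isolation label, with 55.4% fibrillar, 19.9% type IV and 14.3% type VI, lay between muscle and isolated cells for the fibrillar and type IV classes. The DMSO libraries held 53.1% to 54.9% fibrillar and 25.3% to 26.5% type IV chains, and the alpha-amanitin libraries 61.6% to 62.4% and 18.9% to 21.1%, without overlap for either class. Unfixed and fixed cells held 61.2% and 64.0% fibrillar and 19.9% and 15.6% type IV chains. These shares are ratios within a library and do not depend on its scaling.

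**Figure D1:**
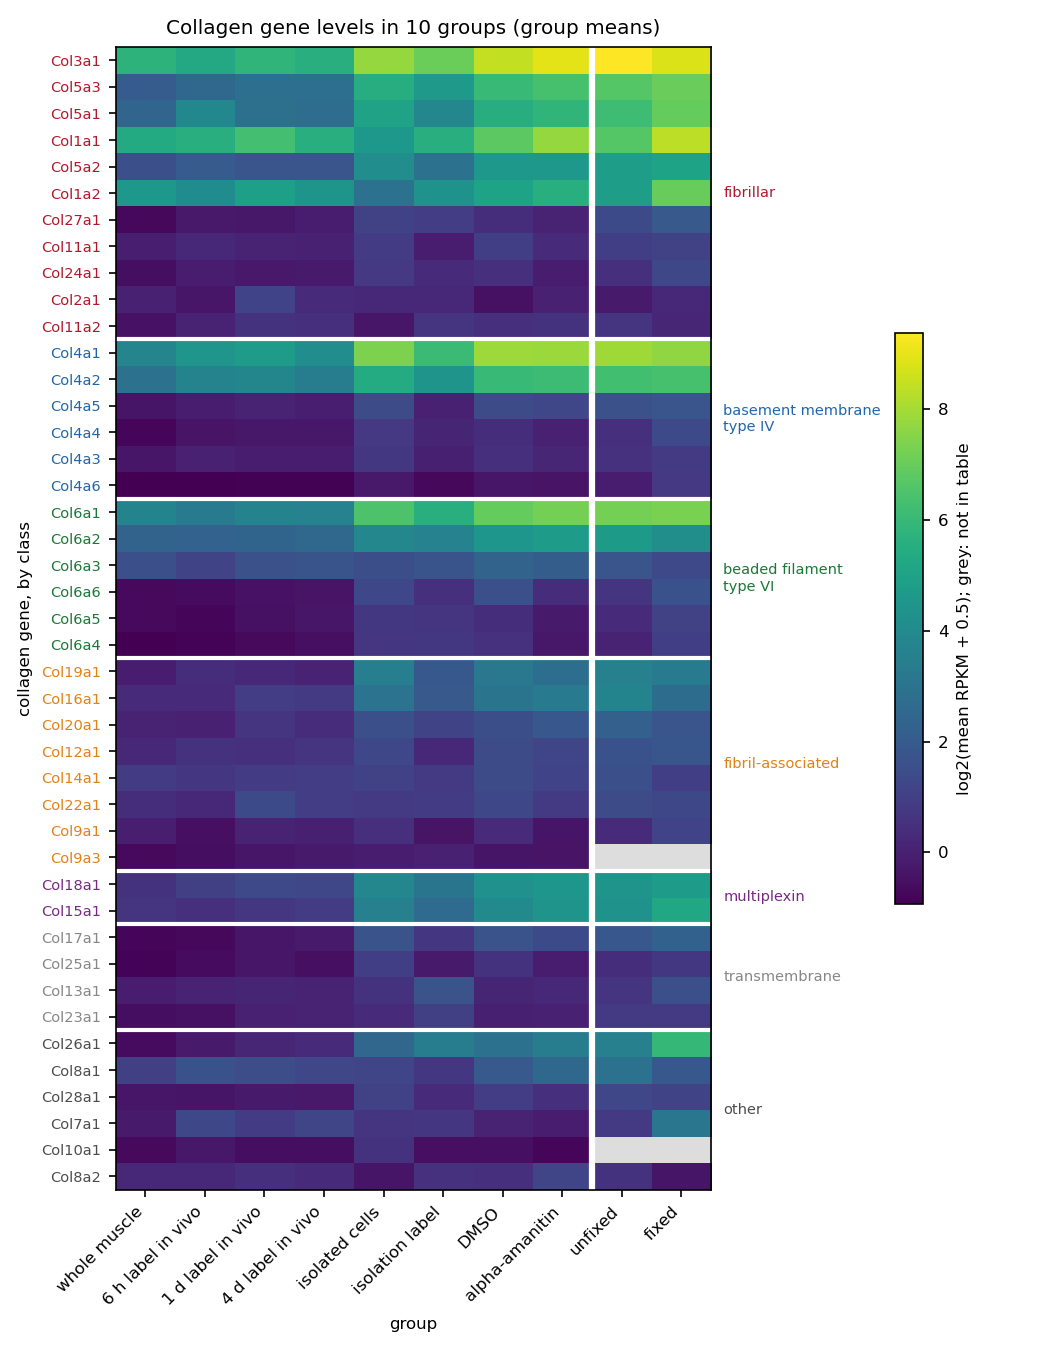
Heat map of the group mean level of each collagen gene in the 10 groups, coloured by log2(RPKM + 0.5) and ordered by class, with grey where a gene is not in the table. Col3a1, Col4a1, Col1a1 and Col6a1 are the brightest rows, and 3 genes (Col4a6, Col9a3 and Col10a1) stay near the dark end throughout.

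The gene order differed between tissue and cells, compared per length. In muscle the highest mean levels were those of Col3a1 (52.9 RPKM), Col1a1 (40.8), Col1a2 (23.1), Col4a1 (13.1) and Col6a1 (12.9). The spreads of Col4a1 and Col6a1 overlapped there. In isolated cells the order was Col3a1 (213), Col4a1 (161), Col6a1 (91.2), Col5a3 (44.0), Col4a2 (42.1) and Col5a1 (31.7), and Col1a1 stood at 23.5 RPKM. Col5a3 and Col4a2 overlapped there, with Col5a3 down to 43.2 and Col4a2 up to 43.9. The 3 genes Col10a1, Col9a3 and Col4a6 passed the level filter (1 RPKM in 3 of the libraries compared) in no comparison and are given by their range. Col10a1, the hypertrophic cartilage collagen, ran from 0.0330 to 1.11 RPKM, Col9a3 of cartilage up to 1.08, and the type IV chain Col4a6 from 0.0223 to 2.01.

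Isolated stem cells were compared with whole muscle, to see which collagens the cells hold. Nothing in the labels says that the cells and the muscle came from the same animals. Of 34 collagen genes tested, 31 were higher in the cells, 2 lower and 1 not called, where 95.3% of all genes tested were called, 48.8% higher and 46.5% lower. The other 9 members did not reach the level filter. A member that reached it only through the group where it is high had to differ, and 20 of the 34 reached it through the cells alone, all of them higher. Of the 14 that reached 1 RPKM in at least 3 libraries of each group, 11 were higher and 2 lower. A gene was called at an adjusted p under 0.05 in limma, on log2(RPKM + 0.5), over all genes tested. The median difference of the collagens was 1.69 and that of all genes 0.06, both as log2. All 5 type IV chains tested, 5 of 6 type VI chains and all 6 fibril-associated chains were higher in the cells. These counts include members that passed through the cells alone. They were Col4a3, Col4a4 and Col4a5 of type IV, Col6a4, Col6a5 and Col6a6 of type VI, and every fibril-associated chain but Col14a1. Of 9 fibrillar chains, 7 were higher and 2 lower, and the higher Col11a1, Col24a1 and Col27a1 passed through the cells alone.

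The 2 that were lower were the chains of type I collagen, the main fibril of tendon and fascia. Col1a2 stood at 6.93, 6.996, 7.63 and 7.37 RPKM in isolated cells and at 24.2, 22.3, 23.5 and 22.3 in muscle, a log2 difference of -1.61 (SE 0.04, adjusted p = 2.73e-12). Col1a1 stood at 23.5 ± 1.65 RPKM (SD, n = 4) in cells and 40.8 ± 1.64 (SD, n = 4) in muscle, a log2 difference of -0.79 (adjusted p = 1.49e-08). The cells lay below the muscle in every library for both chains. These 2 directions rest on the authors' library scaling: with library size taken from all recovered reads, the all-gene median shifted by 1.39, Col1a1 became higher at 0.81 and Col1a2 was no longer called at -0.06. Both still lay below the median of all genes at 1.59 in that scaling, where 38 of 39 collagens tested were higher. The median of the collagens was 2.37 there. The share of all genes called in that scaling is not given, so the count shows only how the calls moved.

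Col3a1, the type III fibril chain, was higher in the cells at 210, 219, 214 and 207 RPKM against 55.8, 51.6, 54.8 and 49.6 (log2 difference 1.997, SE 0.04, adjusted p = 4.01e-13). The basement membrane chain Col4a1 reached 161 ± 1.83 RPKM (SD, n = 4) against 13.1 ± 0.604 (SD, n = 4), a log2 difference of 3.57 (adjusted p = 1.05e-15). Its partner Col4a2 differed by less, with 42.1 against 7.30 RPKM and a log2 difference of 2.45. The 3 chains of type V collagen were all higher. Col5a3 stood at 44.2, 44.3, 43.2 and 44.2 RPKM against 3.76, 3.62, 3.84 and 3.38 (3.42, adjusted p = 2.44e-15). Col5a1 and Col5a2 had log2 differences of 2.57 and 2.56, with means of 31.7 and 17.1 RPKM in cells. No library of either group reached the other's range for any of these 6 genes. Genes without overlap were not counted over all genes, of which 95.3% were called in this comparison.

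The type VI chains went apart. Col6a1 stood at 91.2 RPKM in cells and 12.9 in muscle (2.78), and Col6a2 at 13.7 and 4.67 (1.46). Col6a3, which joins both in the type VI molecule, stood at 2.40 and 2.51 RPKM and was not called (-0.05, adjusted p = 0.388); with library size from all recovered reads it was higher at 1.31, below the median of all genes. The 2 multiplexins, basement membrane collagens that carry endostatin domains, were higher: Col15a1 at 11.2 against 1.08 RPKM (2.88) and Col18a1 at 13.9 against 1.01 (3.25). The largest log2 difference of any collagen was that of the fibril-associated Col19a1, at 10.5 against 0.398 RPKM (3.62, adjusted p = 4.53e-15), a gene that passed the filter through the cells alone, as did Col18a1 and Col26a1. Col26a1, a little-studied secreted chain, stood at 5.04 against 0.144 RPKM (3.11). Lists of other cell types moved in the same comparison. The 14 fibro-adipogenic genes summed to 2260 to 2391 RPKM in muscle and 634 to 659 in cells, but held 0.344% to 0.362% and 0.348% to 0.357% of reads, ranges that overlap. The 9 tenocyte genes summed to 103 to 105 RPKM and 24.2 to 25.9 (0.0172% to 0.0181% and 0.0140% to 0.0149% of reads). The sum of the 11 smooth muscle and pericyte genes was higher in the cells on both scales. It was 120.4 to 129 RPKM in muscle and 211 to 217 in cells (0.0270% to 0.0284% and 0.180% to 0.185% of reads). Within that list Notch3 read 0.505 to 0.713 RPKM in muscle and 72.6 to 77.8 in cells. No gene of these 3 lists lay below 0.1 RPKM in every library of either group, and their part in these differences was not tested.

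**Figure D2:**
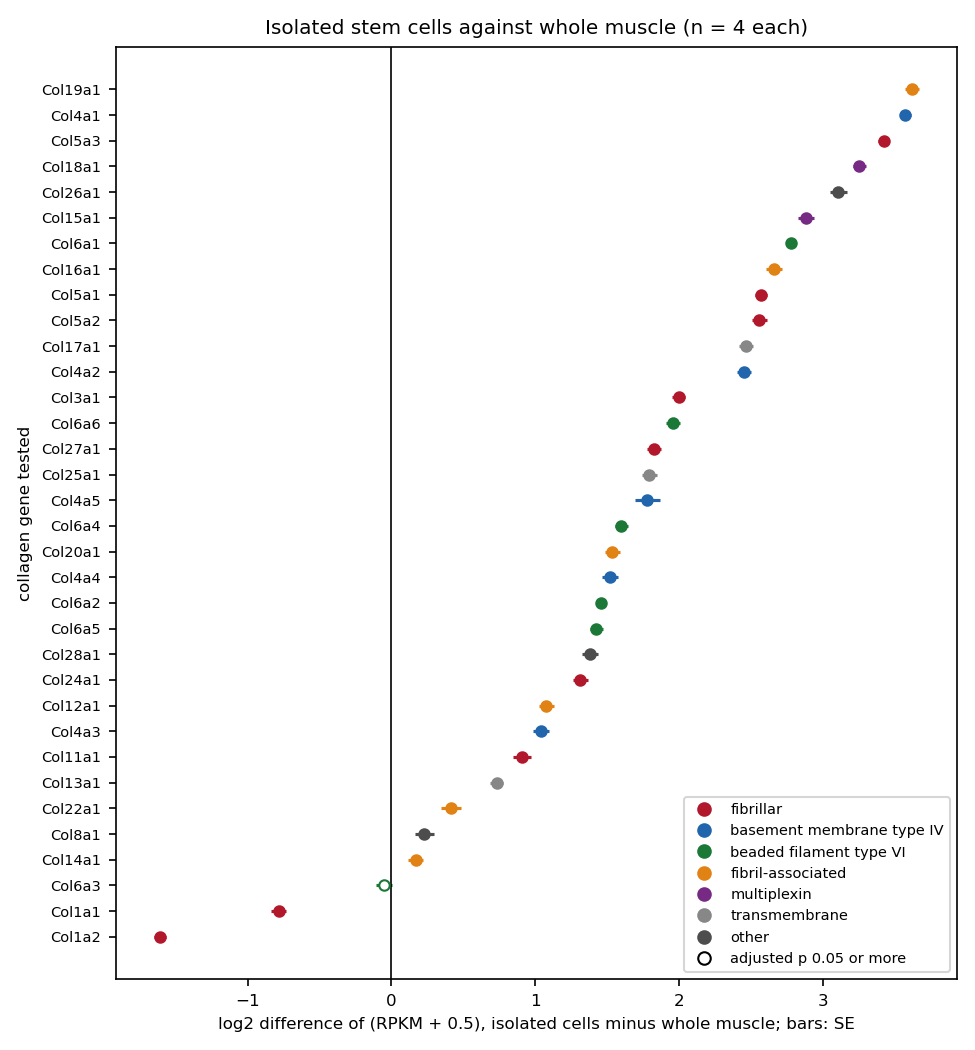
Difference between isolated stem cells and muscle input for the 34 collagen genes tested, as log2(RPKM + 0.5) with bars of 1 SE, filled where called at an adjusted p under 0.05. Col1a2 and Col1a1 lie below 0, the open point is Col6a3, and Col19a1 and Col4a1 lie farthest to the higher side at 3.62 and 3.57.

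RNA labelled in the animal for 6 h was compared with muscle input. The labels do not say which labelled RNA, if any, was pulled from these inputs. Of 16 collagen genes tested, 9 were higher in the labelled RNA and 6 lower, where 90.0% of all genes tested were called, 45.6% higher and 44.4% lower. The medians were 0.29 for collagens and 0.02 for all genes. The 6 h, 1 d and 4 d comparisons use the same 4 muscle libraries as the isolated cells, so their values are given side by side and not as separate evidence. Of the type IV chains, 2 of 2 tested were higher at 6 h, and 2 of 3 type VI chains were lower. The split depended on the scaling: with library size from all recovered reads, which moved the median of all genes by 0.33, 10 were higher and 2 lower. The medians were then 0.65 for collagens and 0.31 for all genes. That split is given without the share of all genes called and shows only how the calls moved.

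Col5a1 and Col7a1 had the largest differences at 6 h. Col5a1 read 12.2, 15.99, 15.0 and 14.5 RPKM in labelled RNA against 5.01, 4.86, 5.23 and 4.64 in muscle, a log2 difference of 1.45 (SE 0.07, adjusted p = 5.09e-10). Col7a1, the chain of anchoring fibrils, read 2.04, 1.86, 1.88 and 2.04 RPKM against 0.379, 0.393, 0.401 and 0.349, a log2 difference of 1.48 (SE 0.05, adjusted p = 2.23e-11). For both, every labelled library lay above every muscle library, though Col7a1, like Col18a1, passed the filter through the labelled RNA alone. Among the other members the called differences ran from -0.48 to 0.72. The 2 type IV chains were higher, Col4a1 at 21.2 against 13.1 RPKM (0.68) and Col4a2 at 12.3 against 7.30 (0.72). Col8a1, a short-chain collagen of vessels, was higher at 2.65 against 1.51 RPKM (0.65), and Col5a3 and Col5a2 were higher by 0.45 and 0.44.

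The lower genes at 6 h were led by Col1a2, at 16.2, 16.3, 16.5 and 16.7 RPKM against 24.2, 22.3, 23.5 and 22.3 in muscle (-0.48, SE 0.04, adjusted p = 3.92e-08). Col6a1 (-0.46), Col3a1 (-0.45, with 38.6 against 52.9 RPKM), Col6a3 (-0.38) and Col14a1 (-0.18) were lower too. Col15a1 was lower by a small amount (-0.14, adjusted p = 0.0348), a call that ended when muscle replicate 1 or 3 or label replicate 1 or 3 was left out (adjusted p 0.0564 to 0.109) and with all groups of the table in 1 fit (adjusted p = 0.439). It passed the filter through the muscle alone. Col1a1 was higher at 45.8 against 40.8 RPKM (0.17, adjusted p = 6.59e-04), but it turned to -0.040 with median-of-ratios library factors, which moved the median of all genes by -0.19. Col3a1 and Col6a3 were no longer called with library size from all recovered reads, at -0.09 each. The 14 endothelial marker genes held 0.188% to 0.195% of reads at 6 h against 0.109% to 0.113% in muscle, and the fibro-adipogenic genes 0.175% to 0.185% against 0.344% to 0.362%. Their part in the collagen values was not tested.

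After 1 d of label, 14 of 20 collagen genes tested were higher than in muscle and 0 lower, against 28.2% higher and 54.7% lower of all genes tested (82.9% called in either direction). No member was lower at an unadjusted p under 0.05 in limma, and limma-voom on the recovered reads gave 14 higher and 0 lower. Of the 14 higher, 6 passed the filter through the labelled RNA alone (Col2a1, Col7a1, Col16a1, Col18a1, Col20a1 and Col22a1) and could only be higher. Of the 14 that passed in both groups, 8 were higher and 6 not called. The medians were 0.51 for collagens and -0.19 for all genes. Col1a1 read 77.6, 81.7, 79.9 and 75.5 RPKM against 42.1, 40.5, 42.0 and 38.6, a log2 difference of 0.94 (SE 0.04, adjusted p = 4.36e-10), and no library of the groups overlapped. Its partner Col1a2 was higher by less, with 28.9 against 23.1 RPKM and 0.32. Col3a1 was not called (0.07, adjusted p = 0.165). Both type IV chains tested were higher, Col4a1 by 1.01 and Col4a2 by 0.85, and none of the 3 type VI chains was called.

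Among the members that passed through the labelled RNA alone, Col2a1, the cartilage fibril chain, read 1.42, 1.93, 1.70 and 1.69 RPKM against 0.538, 0.451, 0.533 and 0.489 (1.12, SE 0.07). Col22a1, a fibril-associated collagen of the junction between muscle and tendon, stood at 2.13 against 0.819 RPKM (1.00). Col7a1 was higher by 1.09 at a mean of 1.37 RPKM, and Col5a3, which passed in both groups, by 0.79 at 6.68 RPKM. Col2a1 was tested in no other comparison. Marker lists moved at 1 d and at 4 d as well. The fibro-adipogenic genes summed to 1431 to 1520 RPKM at 1 d and 1532 to 1585 at 4 d against 2260 to 2391 in muscle, and the endothelial genes to 1374 to 1569 and 1611 to 1683 against 2135 to 2217. The tenocyte genes summed to 95.4 to 98.9 RPKM at 1 d and 67.7 to 69.8 at 4 d against 103 to 105, but within that list Scx, the tendon transcription factor, read 18.9 to 24.96 at 1 d and 16.5 to 17.8 at 4 d against 8.29 to 10.2. Their part in the collagen values was not tested.

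After 4 d of label, 15 of 19 collagen genes tested were higher than in muscle and 3 lower, where 84.5% of all genes tested were called, 28.1% higher and 56.4% lower. With library size from all recovered reads, which moved the median of all genes by 0.19, 14 of 16 tested were higher and the other 2 not called. The medians were then 0.37 for collagens and -0.06 for all genes. Of the 15 higher, 5 passed the filter through the labelled RNA alone (Col7a1, Col12a1, Col16a1, Col18a1 and Col22a1), and these include 4 of the 5 largest differences. Of the 14 that passed in both groups, 10 were higher and 3 lower. Col7a1 read 1.94, 1.70, 1.76 and 1.92 RPKM against 0.379, 0.393, 0.401 and 0.349 (1.40, SE 0.06, adjusted p = 2.55e-10). Col5a3, which passed in both groups, stood at 6.71 against 3.65 RPKM (0.80), Col18a1 at 1.90 against 1.01 (0.67), Col22a1 (0.53) and the fibril-associated Col16a1 (0.48). The type IV chains were higher by 0.36 for Col4a1 and 0.45 for Col4a2. The 3 lower genes differed by small amounts, Col3a1 by -0.19, Col1a2 by -0.16 and Col6a1 by -0.11, and each lay at or above 0 in the scaling by all reads (0.0052, 0.036 and 0.077). With the authors' scaling the medians were 0.28 for collagens and -0.21 for all genes. Fitted with all groups of the table, 7 collagens were called, each of them higher, at the same medians. That count and the one with all reads lack the share of all genes called and show only how the calls moved.

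**Figure D3:**
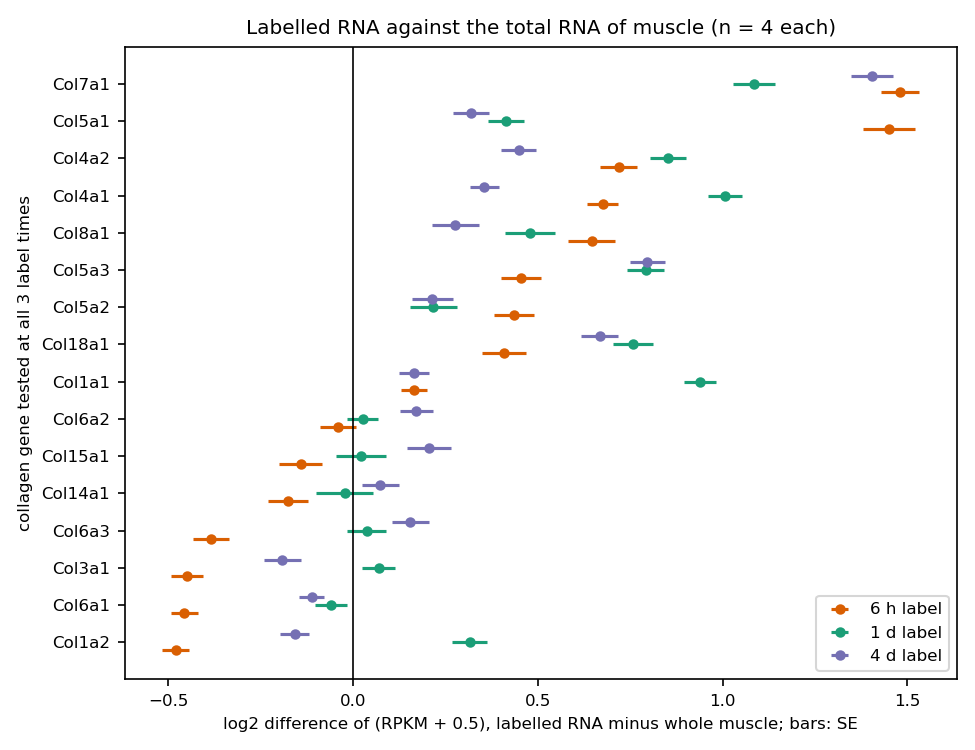
Difference between labelled RNA and muscle input at 6 h, 1 d and 4 d for the 16 collagen genes tested at all 3 times, as log2(RPKM + 0.5) with bars of 1 SE. Col7a1 lies above 1 at each time, Col5a1 above 1 at 6 h only, and Col1a1 at 0.94 at 1 d; the 3 comparisons share their muscle libraries.

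The shortest and longest in vivo label were compared directly, without the muscle libraries. Of 19 collagen genes tested, 5 were higher at 6 h and 11 lower, where 88.7% of all genes tested were called, 52.7% higher and 36.1% lower. The median of the collagens was -0.25 and that of all genes 0.18. Col5a1 differed most, at 12.2, 15.99, 15.0 and 14.5 RPKM at 6 h against 6.74, 6.26, 6.05 and 6.08 at 4 d (1.13, SE 0.07, adjusted p = 1.20e-08), and the groups did not overlap. The other higher genes were Col8a1 (0.37), Col4a1 (0.32), Col4a2 (0.27) and Col5a2 (0.22). All 3 type VI chains and both multiplexins tested were lower at 6 h. Col12a1, Col15a1, Col16a1 and Col22a1 passed the filter through the 4 d label alone. The largest falls were those of Col22a1 (-0.67), Col6a3 (-0.54), Col16a1 (-0.51), Col15a1 (-0.35) and Col6a1 (-0.35). Col7a1 did not differ beyond its error (0.08, adjusted p = 0.215). Col1a1 was at 0.00 (adjusted p = 0.976), but at -0.16 (adjusted p = 7.88e-04) with the median of ratios and at 0.16 (adjusted p = 0.00316) with all reads. With all reads the split was 7 higher and 5 lower, at medians of -0.08 for collagens and 0.32 for all genes. With all groups in 1 fit it was 2 higher and 4 lower. The share of all genes called is not given for either fit, so both splits show only how the calls moved.

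Label in the animal was compared with label during isolation, both for about 6 h. The RNA of the first was pulled from whole muscle and that of the second from purified cells, so the RNA source and the time of label cannot be told apart. Of 25 collagen genes tested, 2 were higher in vivo and 19 lower, where 63.0% of all genes tested were called, 38.5% higher and 24.4% lower. The medians were -1.27 for collagens and 0.31 for all genes. Of the 13 that passed the filter in both groups, 9 were lower and 4 not called. The 2 higher passed it through the in vivo label alone, and 10 of the 19 lower, Col26a1 and Col15a1 among them, through the isolation label alone. Col26a1 read 0.444, 0.351, 0.321 and 0.437 RPKM in vivo and 12.9, 6.91, 9.90 and 10.5 in the isolation label (-3.54, SE 0.20, adjusted p = 1.36e-06). Col6a1 was lower in vivo at 9.25 against 45.4 RPKM (-2.22), Col15a1 by -2.10, Col5a3 by -2.02, Col18a1 by -2.01, Col3a1 by -1.73 and Col4a1 by -1.62.

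A few chains did not follow. Col5a1 was not called, at 14.4 RPKM in vivo and 13.9 in the isolation label (0.07, SE 0.18, adjusted p = 0.751), and neither were Col1a1 (-0.01, adjusted p = 0.947) and Col1a2 (-0.23, adjusted p = 0.141). With all reads, which moved the median of all genes by -0.50, Col1a1 was called at -0.56 and Col1a2 at -0.77. Col8a1 was higher in vivo at 2.65 against 1.15 RPKM (0.99, adjusted p = 0.00568). Col7a1 was higher at 1.96 against 1.12 RPKM (0.65, adjusted p = 0.0328), a call that ended with any in vivo replicate or isolation label replicate 3 left out (adjusted p 0.0606 to 0.0799). The call of Col4a2 (-0.66) ended without in vivo replicate 1 (adjusted p = 0.0512).

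RNA labelled during isolation was compared with the total RNA of isolated cells, to see which collagen RNAs were made while the cells were being purified. Of 36 collagen genes tested, 5 were higher in the labelled RNA and 20 lower, where 59.5% of all genes tested were called, 29.8% higher and 29.7% lower. The medians were -0.76 for collagens and -0.07 for all genes. Of the 22 that passed the filter in both groups, 4 were higher and 12 lower. The higher Col23a1 passed it through the isolation label alone, and 8 of the 20 lower through the isolated cells alone. The 2 chains of type I were among the 5 that were higher. Col1a2 read 18.1, 17.8, 18.4 and 23.3 RPKM against 6.93, 6.996, 7.63 and 7.37 in total RNA (1.36, SE 0.13, adjusted p = 1.89e-05). Col1a1 read 38.4, 47.4, 42.9 and 58.1 RPKM against 21.5, 22.8, 24.9 and 24.8 (0.96, SE 0.14, adjusted p = 2.77e-04). Neither gene overlapped between the groups. The transmembrane chains Col13a1 (1.04, adjusted p = 0.0109) and Col23a1 (0.65) and the secreted Col26a1 (0.90, with 10.1 against 5.04 RPKM) were also higher. The call of Col23a1 ended without any single library of the isolated cells (adjusted p 0.0560 to 0.0718).

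Type IV went the other way, with Col4a1 and Col4a2 lower in the labelled RNA. Col4a3, Col4a4 and Col4a5 were lower too, which makes 5 of 5 tested, but they passed the filter through the isolated cells alone. Col4a1 read 80.2, 56.6, 44.3 and 93.4 RPKM against 159, 161, 163 and 160 (-1.28, SE 0.21, adjusted p = 6.25e-04), so that the labelled libraries varied by more than a factor of 2 but all lay below. Col19a1 had the largest fall (-1.57, with 3.22 against 10.5 RPKM), followed by Col4a5 (-1.47), Col5a2 (-1.25) and Col5a1 (-1.19, with 13.9 against 31.7 RPKM). Col6a1 (-1.01), Col5a3 (-0.95), Col15a1 (-0.92) and Col3a1 (-0.71, with 133 against 213 RPKM) were lower, while Col6a2 and Col6a3 were not called. Left without replicate 2 of the isolation label, the library with the fewest reads, 4 of 35 tested were higher and 21 lower, where 59.5% of all genes tested in that fit were called, 29.4% higher and 30.1% lower. That fit kept replicate 3, which had a like share of muscle fibre reads (9.77% against 9.11%) and the lowest collagen share of the group (0.285%). Without replicate 3 the medians were -0.70 for collagens and -0.08 for all genes.

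Marker lists moved with these values. The satellite cell list took 0.491% to 0.637% of reads in the isolation label and 1.35% to 1.39% in total RNA of the cells. The muscle fibre list took 2.93% to 9.77% of reads in the isolation label and 0.121% to 0.214% in total RNA of the cells, and the fibro-adipogenic list 0.501% to 0.591% against 0.348% to 0.357%. The fibro-adipogenic genes summed to 1718 to 2103 RPKM against 634 to 659, with none of the 14 near 0. The tenocyte list rose to 0.0217% to 0.0353% against 0.0140% to 0.0149%, and the endothelial list to 0.173% to 0.224% against 0.0839% to 0.0912%. The immune list took 0.0605% to 0.0725% against 0.0136% to 0.0144%. The smooth muscle and pericyte list fell to 0.115% to 0.156% against 0.180% to 0.185%, but rose in RPKM (456 to 538 against 211 to 217). The part of all these lists in the type I rise and the other collagen values was not tested. With library size from all recovered reads, which moved the median of all genes by -0.65, 1 collagen was higher and 28 lower, and Col1a1 (0.27, adjusted p = 0.108) and Col13a1, Col23a1 and Col26a1 were no longer called. The medians were then -1.41 for collagens and -0.71 for all genes. Without the share of all genes called, that split shows only how the calls moved.

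**Figure D4:**
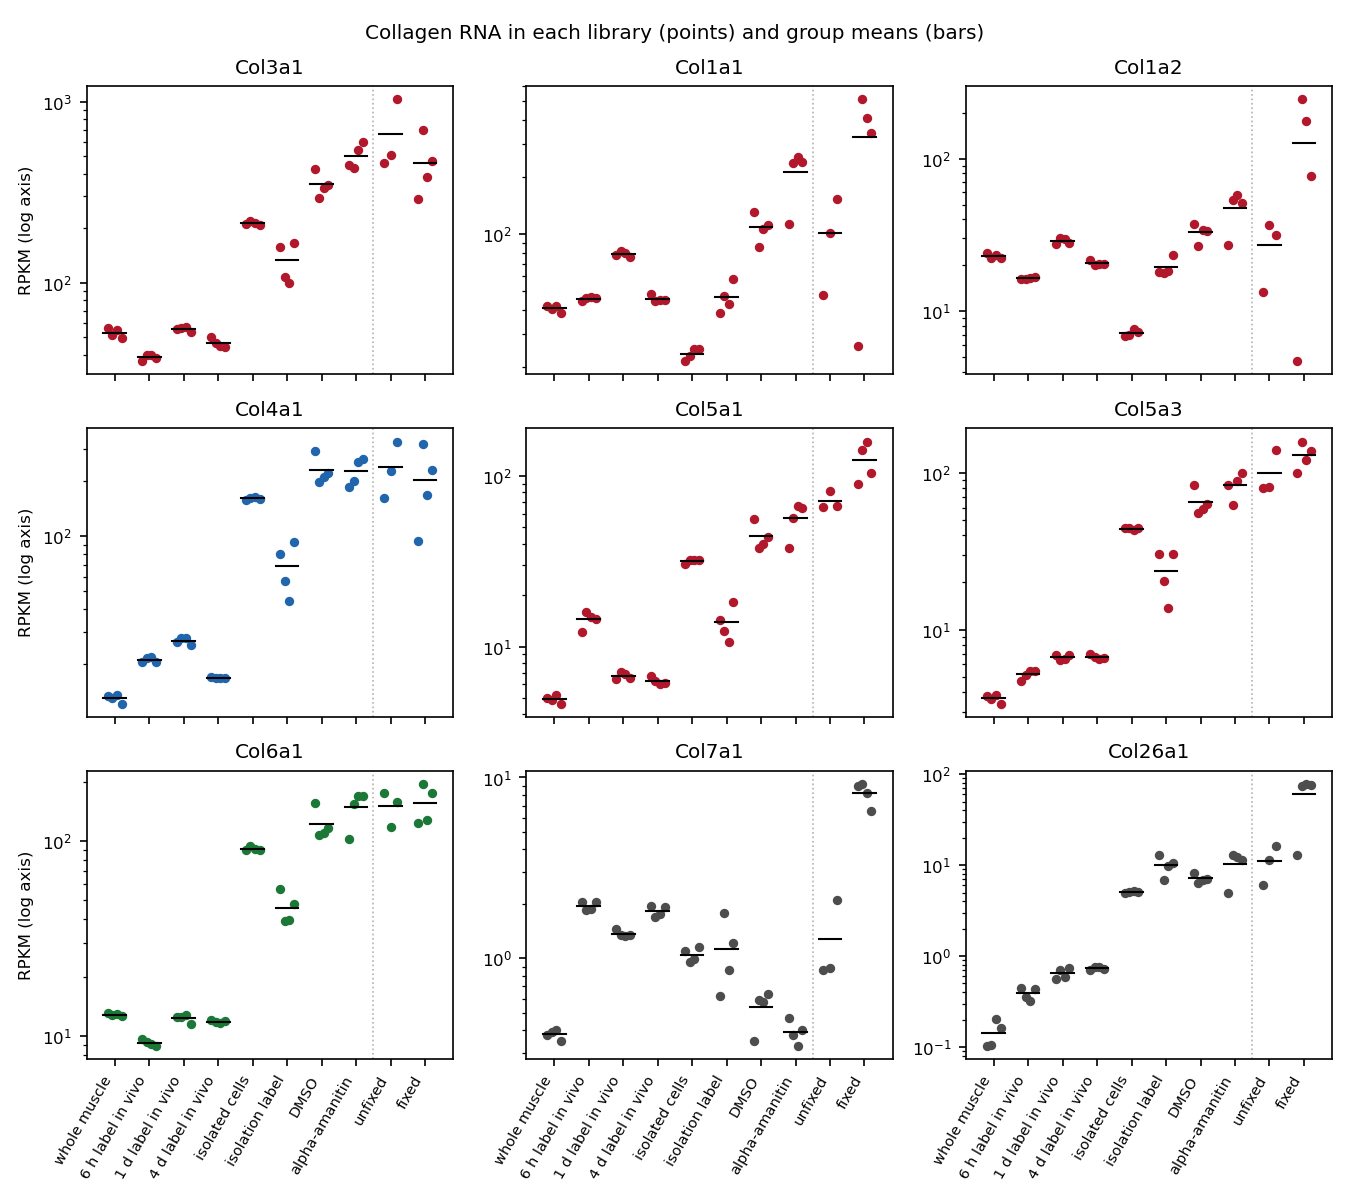
RPKM of 9 collagen genes in each of the 39 libraries, on a log axis, with bars at the group means. Col3a1 lies between 36.9 and 56.7 in every muscle and in vivo label library, Col7a1 between 6.56 and 9.20 in the fixed cells, and 1 fixed library lies far below the others for Col1a1 and Col1a2.

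Alpha-amanitin was compared with DMSO during isolation, to see what blocking transcription does to collagen RNA in isolated cells. Of 30 collagen genes tested, 3 were higher with alpha-amanitin and 3 lower, where 44.2% of all genes tested were called, 33.9% higher and 10.3% lower. Of the 23 that passed the filter in both groups, 2 were higher and 1 lower. The medians were 0.08 for collagens and 0.28 for all genes. Col6a6, a type VI chain, read 0.988, 0.582, 0.854 and 0.767 RPKM with alpha-amanitin and 2.43, 2.41, 2.66 and 2.65 with DMSO, a log2 difference of -1.23 (SE 0.16, adjusted p = 0.00110). The groups did not overlap, and this was the 1 collagen called in every fit that left out a library. It passed the filter through the DMSO libraries alone. Col11a1 (-0.66, adjusted p = 0.0448) and Col22a1 (-0.50, adjusted p = 0.0383) were lower in the full set. Col11a1 also passed the filter through the DMSO libraries alone.

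Col1a1 read 113, 238, 256 and 241 RPKM with alpha-amanitin and 130, 85.1, 107 and 112 with DMSO, a log2 difference of 0.90 (SE 0.29, adjusted p = 0.0300). Replicate 1 with alpha-amanitin lay within the DMSO range, and the other 3 above it. Col8a2 (0.72, adjusted p = 0.0221) and Col8a1 (0.54, adjusted p = 0.0146), which form the same kind of network in vessel walls and the eye, were higher. Col8a2 passed the filter through the alpha-amanitin libraries alone. Col3a1 was just short of the threshold (0.53, adjusted p = 0.0522), and Col4a1 did not differ beyond its error at 226 against 230 RPKM (-0.03, SE 0.21, adjusted p = 0.917). The calls of Col11a1, Col22a1, Col1a1, Col8a1 and Col8a2 each ended when 1 of several single libraries of either group was left out (adjusted p 0.0506 to 0.133).

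Replicate 1 with alpha-amanitin stood apart in the low members too. Col24a1 read 1.16 RPKM there and 0.187, 0.111 and 0.2002 in replicates 2 to 4, against 0.711 to 1.08 with DMSO. Col25a1 read 1.33 RPKM and then 0.114, 0.0650 and 0.0796, against 0.754 to 1.21 with DMSO. Col6a5 and Col4a3 showed the same arrangement, at 1.02 and 1.36 RPKM in replicate 1 and 0.150 to 0.162 and 0.356 to 0.449 in the others. In each case replicate 1 lay at or above the DMSO libraries and the other 3 lay below them. Pax7 itself read 11.04 RPKM in replicate 1 and at most 27.99 in the others, where the lowest was 26 RPKM.

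Without that library, 12 of 28 collagens tested were higher and 7 lower, where 79.1% of all genes tested in that fit were called, 54.7% higher and 24.4% lower. The medians were then 0.28 for collagens and 0.42 for all genes. Col1a1 was then higher by 1.18 (adjusted p = 1.63e-05), Col8a2 by 0.90, Col26a1 by 0.74, Col1a2 by 0.71, Col15a1 by 0.62, Col3a1 by 0.58, Col5a1 by 0.51 and Col6a1 and Col6a2 by 0.44 each. Col6a6 (-1.30), Col28a1 (-0.87), Col11a1 (-0.86) and Col22a1 (-0.56) were lower. As in the full set, Col8a2 passed the filter through alpha-amanitin alone, and Col6a6, Col28a1 and Col11a1 through DMSO alone. The library scaling turned the balance: with library size from all recovered reads, which moved the median of all genes by -0.47, 1 collagen was higher and 16 lower, among them Col5a2 (-0.50), Col4a2 (-0.42), Col6a2 (-0.28) and Col6a1 (-0.24). The medians in that scaling, with all libraries kept, were -0.54 for collagens and -0.29 for all genes. The share of all genes called is not given for it, so its split shows only how the calls moved. The authors' factors lay between 0.917 and 1.54 for the alpha-amanitin libraries and between 1.25 and 1.66 for the DMSO libraries. The muscle fibre list took 1.06% to 3.23% of reads with alpha-amanitin and 0.0831% to 0.103% with DMSO, the fibro-adipogenic list 0.553% to 0.745% against 0.421% to 0.507%, and their part in the collagen values was not tested.

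Cells from mice fixed before sorting were compared with unfixed cells. Of 37 collagen genes tested, 3 were higher in fixed cells and 0 lower, where 23% of all genes tested were called, 12.2% higher and 10.8% lower. At an unadjusted p under 0.05 in limma 1 was lower, and limma-voom gave 4 higher and 0 lower. Col7a1 read 8.94, 9.20, 8.24 and 6.56 RPKM in fixed and 0.858, 0.890 and 2.09 in unfixed cells, a log2 difference of 2.35 (SE 0.33, adjusted p = 0.00100). The groups did not overlap, and Col7a1 stayed called with any single library left out. It passed the filter through the fixed cells alone. Col26a1 read 12.9, 74.7, 78.0 and 77.0 RPKM in fixed and 6.00, 11.3 and 16.2 in unfixed cells (2.19, SE 0.62, adjusted p = 0.0297). Here 3 fixed libraries lay far above and replicate 1 lay among the unfixed ones. Col5a1 read 89.5, 141, 158 and 104 RPKM against 65.9, 81.7 and 66.2 (0.76, SE 0.24, adjusted p = 0.0457), without overlap. The calls of Col26a1 and Col5a1 ended when any library other than fixed replicate 1 was left out (adjusted p 0.0505 to 0.160).

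The type I chains spread widely among the fixed libraries. Col1a1 read 25.7, 514, 411 and 342 RPKM in fixed and 47.7, 102 and 153 in unfixed cells (1.19, SE 0.92, adjusted p = 0.385). Col1a2 read 4.73, 245, 177 and 77.0 RPKM against 13.4, 36.6 and 31.7 (1.35, adjusted p = 0.422). Replicate 1 lay below all unfixed libraries for both chains and the other 3 lay above them. Without it, 7 of 35 collagens tested were higher, where 26.2% of all genes tested in that fit were called, 14.3% higher and 11.9% lower. The 7 were Col26a1 (2.82, adjusted p = 7.22e-04), Col1a2 (2.56, adjusted p = 0.00606), Col7a1 (2.31), Col1a1 (2.19, adjusted p = 0.00460), Col15a1 (1.25), Col6a6 (1.21) and Col5a1 (0.90). Of these, Col7a1 and Col6a6 passed the filter through the fixed cells alone. Col3a1 (-0.51, SE 0.36, adjusted p = 0.341) and Col4a1 (-0.32, SE 0.40, adjusted p = 0.606) were not called with all libraries. The endothelial list took 0.0119% to 0.0390% of reads in fixed and 0.0574% to 0.274% in unfixed cells, and the fibro-adipogenic list 0.156% to 0.284% against 0.390% to 0.479%. The smooth muscle and pericyte list took 0.151% to 0.321% against 0.119% to 0.215% (547 to 1537 RPKM against 403 to 763), and the Schwann and glia list 0.0517% to 0.111% against 0.0393% to 0.0845%, both with overlap. The satellite cell list took 0.613% to 0.960% in fixed and 1.126% to 1.355% in unfixed cells. Within it Pax7 was higher in fixed cells, at 47.8 to 84.9 against 23.9 to 38.6 RPKM. The tenocyte list took 0.00350% to 0.00923% against 0.0103% to 0.0340%, though its summed RPKM overlapped (15.1 to 42.1 against 36.7 to 125). The part of these lists in the collagen values was not tested. The extraction kit for fixed tissue was used for both groups.

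Chains that make up 1 molecule did not keep 1 ratio across the groups. The change of a ratio from library to library does not depend on the gene lengths, since the same lengths enter each time. Its size does, and Col1a1 to Col1a2 in muscle was 1.77 by RPKM but 0.956 by reads. Col1a1 and Col1a2, which join in the type I molecule, had an RPKM ratio of 1.77 ± 0.0393 (SD, n = 4) in muscle, 2.79 at 6 h, 2.73 at 1 d and 2.22 at 4 d of label. The ratio was 3.25 in isolated cells, 2.40 in the isolation label, 3.28 with DMSO and 4.45 with alpha-amanitin. The muscle libraries, at 1.73 to 1.81, lay below every library of those other groups. Col3a1 to Col1a1 went from 1.30 in muscle to 0.843, 0.706 and 1.01 in the 6 h, 1 d and 4 d label and to 9.09 in isolated cells, the highest mean of the 10 groups.

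The type IV pair Col4a1 and Col4a2, read from neighbouring starts, had a ratio of 1.79 in muscle and 1.72, 1.97 and 1.67 in the 6 h, 1 d and 4 d label. In the groups of isolated cells it was 3.82 for total RNA, 3.34 for the isolation label, 3.53 with DMSO and 3.24 with alpha-amanitin, 3.18 in unfixed and 2.56 in fixed cells. Its lowest value in a library of the last 6 groups, 2.16 in a fixed library, was above the highest of the muscle and in vivo label groups, 2.04. Col5a1 to Col5a2 stood at 1.98 in muscle, 4.06 at 6 h of label, 2.27 at 1 d, 2.12 at 4 d and 1.85 in isolated cells, and in fixed cells at 4.33 with a wide spread of 2.90 to 6.75. Col5a3 to Col5a1, the third chain of type V against the first, was lowest at 6 h of label (0.363) and highest in the isolation label (1.67). Col6a1 to Col6a2 was 2.76 in muscle, 6.66 in isolated cells and 9.49 in fixed cells. These ratios were given no test.

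**Figure D5:**
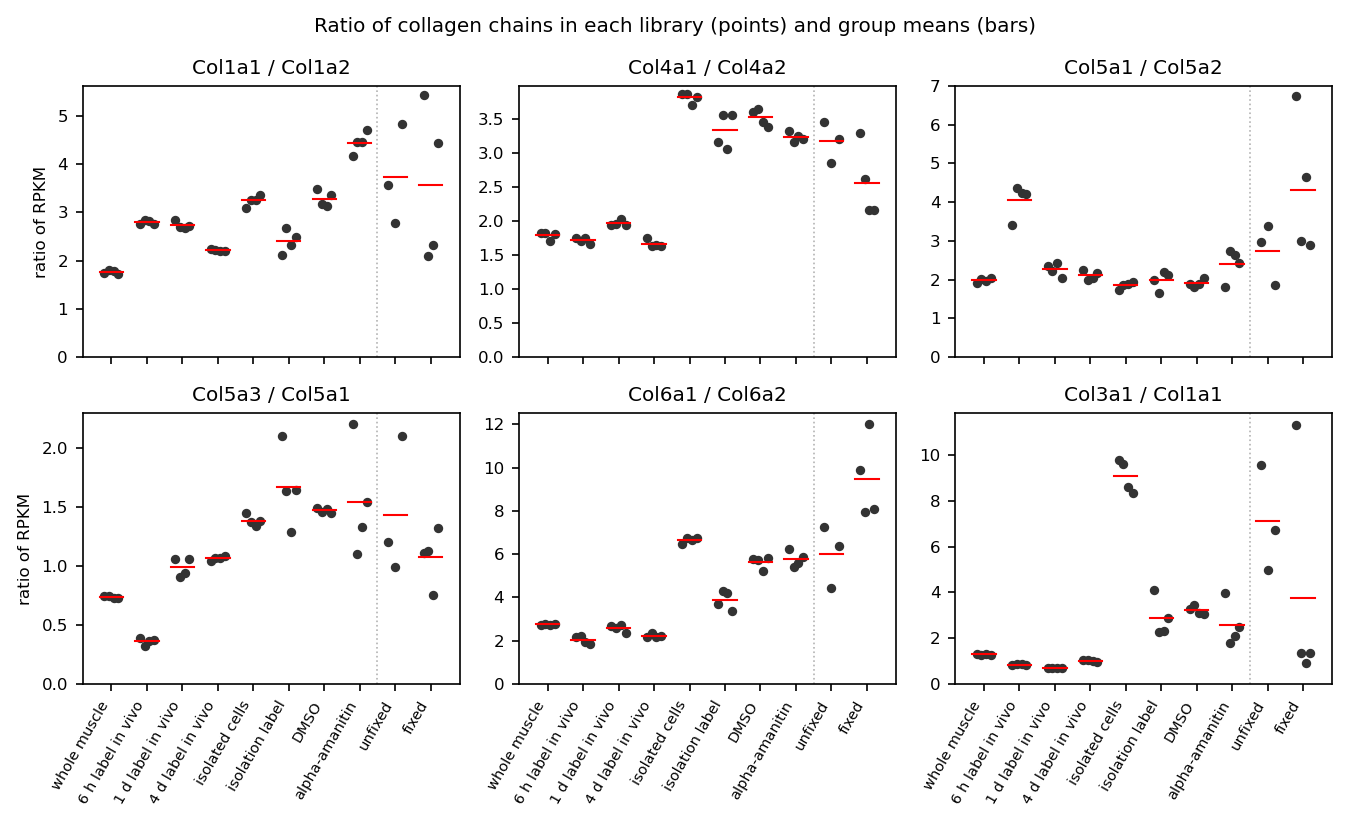
Ratio of RPKM between chains in each library for 6 pairs, on linear axes from 0, by group. Col1a1 to Col1a2 is lowest in muscle at 1.73 to 1.81, Col5a1 to Col5a2 is raised at 6 h of label at 3.42 to 4.37, and Col4a1 to Col4a2 lies at 2.16 or higher in every library of isolated cells.

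The machinery that makes collagen was read from 4 gene lists: biosynthesis in the cell, processing and cross-linking, breakdown and its inhibitors, and receptors. In isolated cells against muscle, where 48.8% of all genes tested were higher and 46.5% lower, 14 of 21 biosynthesis genes tested were higher and 6 lower. Serpinh1, the collagen chaperone, stood at 512 ± 19.8 RPKM (SD, n = 4) against 80.7 ± 5.40 (SD, n = 4), and P4ha1, a prolyl hydroxylase subunit, at 38.5 against 14.8. Of 11 processing and cross-linking genes, 8 were higher and 3 lower. Bmp1, the protease that trims procollagen, stood at 24.3 against 3.41 RPKM, while its enhancer Pcolce was lower at 4.70 against 23.7. Of 13 breakdown genes 7 were higher and 6 lower, close to the shares of all genes, with Mmp2, a gelatinase, at 161 against 25.6 RPKM and the collagen uptake receptor Mrc2 at 19.2 against 0.823. Of 6 receptors tested 5 were higher, led by Ddr1 at 17.03 against 2.13 RPKM.

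In the labelled RNA of whole muscle the lists were read against shares of all genes lower of 44.4% at 6 h, 54.7% at 1 d and 56.4% at 4 d. At 6 h, 3 of 18 biosynthesis genes tested were higher than in muscle and 12 lower. Serpinh1 was lower at 45.6 against 80.7 RPKM and P4hb, the shared subunit of prolyl hydroxylase, at 55.9 against 99.95, while Plod2, a lysyl hydroxylase, was higher at 3.19 against 1.34. The counts were 2 higher and 12 lower of 17 at 1 d, and 4 higher and 12 lower of 18 at 4 d. The integrin Itgb1, part of the collagen-binding receptors, was lower at each time, at 33.9, 58.8 and 46.9 RPKM in the 6 h, 1 d and 4 d label against 80.4 in muscle. Ddr1 was higher at each time, at 3.46, 5.19 and 3.56 RPKM against 2.13. Of the breakdown list, 3 of 10 genes were higher and 6 lower at 6 h, 3 and 6 of 11 at 1 d, and 2 and 8 of 11 at 4 d. Lox, the lysyl oxidase that starts cross-linking, read 5.10 RPKM at 6 h and 2.32 at 4 d.

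In the isolation label against total RNA, 10 of 21 biosynthesis genes were higher and 4 lower, against 29.8% and 29.7% of all genes. Ppib, a prolyl isomerase for procollagen, stood at 82.8 against 22.4 RPKM and Crtap, its partner in prolyl 3-hydroxylation, at 35.1 against 11.5. With alpha-amanitin, where 33.9% of all genes were higher and 10.3% lower, 13 of 20 were higher than with DMSO and the other 7 were not called, led by Crtap at 28.3 against 11.7 RPKM, P3h3 at 5.06 against 1.38 and P3h1 at 8.34 against 3.55. Timp4, an inhibitor of matrix proteases, was higher in both: at 57.9 against 8.85 RPKM in the isolation label and 51.4 against 12.9 with alpha-amanitin. In fixed cells, where 12.2% of all genes were higher and 10.8% lower, 1 of 19 biosynthesis genes was higher (Ppib at 143 against 54.6 RPKM) and 2 lower. Lox and the protease inhibitor Timp3 were lower there, at 1.25 against 13.0 and 3.83 against 41.7 RPKM, with Itgb1 at 73.8 against 157 and Itga1 at 2.25 against 6.07.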

How the data were processed

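The authors deposited RPKM per gene (reads per kilobase, scaled to library size) in 2 tables with a normalisation of their own each, and every test used 1 table. Per the submitters' processing notes, the reads were handled on mm10 with STAR, Trim Galore, Subread's featureCounts and edgeR. Their versions are not given here by the sources used. The larger table's header is shifted by 1 cell, and columns were taken by position after that shift. Values times gene length were whole reads within 0.1 of a read for 100% of values, which gave depths and library factors. Members and gene lists were chosen with earlier results of these data known. Tests ran in limma 3.58.1 (R 4.3.3) with trend on log2(RPKM + 0.5), in the groups compared, over genes with 3 or more libraries at or above 1 RPKM, two-sided, with Benjamini-Hochberg adjustment at 0.05, and were tested on simulated data. The log2 differences understate those of low genes. The rule named 12 core collagens where tested, up to 5 called genes per direction at 1 RPKM or more, and up to 4 called genes per pathway list. Low members in replicate 1 with alpha-amanitin, Col14a1, Col18a1 and Col28a1 where outside that rule, and genes given from the fits without a library were named after their values were seen. Same-numbered libraries did not deviate together in every pair of any comparison, so the replicate number entered no main fit. Some pairing may still be present. For isolated cells, 6 h label and 4 d label against muscle, 3 of 4 libraries correlated best with their own number. The highest r there was 0.236. Figures were drawn with matplotlib 3.10.9, and tables were made with pandas 2.3.3, numpy 2.4.6 and Python 3.11.15.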

Additional observations from a re-analysis of the deposited data

Results flagged for a closer look

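Of 181 sets of 4 libraries (a collagen gene in a group), 13 held 1 library far from the other 3, or 7.18%, where chance gives about 5%. Replicate 1 with alpha-amanitin accounted for 4 of them, being low for Col1a1 (112.6 RPKM, others 238 to 256), Col26a1 (4.885, others 11.5 to 12.8), Col6a2 (16.24, others 28.4 to 30.5) and Col6a3 (2.512, others 4.01 to 4.31). Replicate 1 of the fixed cells was low for Col26a1 (12.92 RPKM, others 74.7 to 78.0) and Col15a1 (14.71, others 42.0 to 46.6). Replicate 4 of the fixed cells was high for Col13a1 (7.605 RPKM, others 0.606 to 0.976). Replicate 1 with DMSO was high for Col18a1 (23.26 RPKM, others at most 17.6) and Col5a2 (29.77, others at most 21.6). Replicate 4 of the isolation label was high for Col1a2 (23.3 RPKM, others 17.8 to 18.4). In 3 further sets the lone library lay close to the rest: Col1a1 in 4 d label replicate 1 (48.61 RPKM, others 44.7 to 45.1), Col4a2 in the same library (9.66, others 10.3) and Col5a3 in isolated cells replicate 3 (43.22, others 44.2 to 44.3).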

How the results depend on the processing

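Of 140 values of named collagens, 140 kept their direction and call with a pseudocount of 0.1 or 1 and without the level filter, and 139 with limma-voom on recovered reads. Leaving out each library gave 1103 values, of which 54 lost and 10 gained a call and 0 changed direction. Without the filter, the collagens called were 30 for 6 h label, 35 for 1 d label and 37 for 4 d label against muscle, and 32 for 6 h against 4 d. With all groups in 1 fit they were 7 for 4 d label against muscle, 6 for 6 h against 4 d, and 18 for alpha-amanitin. With library size from all recovered reads, 17 were called for alpha-amanitin. With the replicate block, 1 was called for alpha-amanitin, 10 of the 140 values lost their call, among them Col15a1 at 6 h against muscle (adjusted p = 0.0540), and no other count of calls moved by over 1.5 times; for fixation the block could use only the 4 libraries that share a number. Without single libraries the count ran from 1 to 19 for alpha-amanitin and from 1 to 7 for fixation. The shares of all genes called are not given beside these counts, so the counts show only how the calls moved. Directions that turned with library size from all recovered reads were, for isolated cells against muscle, Col1a1 (0.81) and Col6a3 (1.31), for 6 h label against muscle Col6a2 (0.27), for 1 d Col6a1 (0.15), for 4 d Col1a2 (0.036), Col3a1 (0.0052) and Col6a1 (0.077), and for alpha-amanitin Col5a2 (-0.50), Col4a2 (-0.42), Col6a1 (-0.24) and Col6a2 (-0.28). With the median of ratios Col1a1 turned at 6 h against muscle (-0.040) and against 4 d (-0.16). The causes were not tested beyond the shift of all genes given with each scaling. The isolation label, with 2321903 to 7742378 reads, is the shallowest group and limits what its low members can show.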

Other observations

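A few values of members at low levels were not given above. Among fixed libraries Col16a1, a fibril-associated chain, read 8.45, 6.22, 1.26 and 8.56 RPKM, so that replicate 4 was low there while it was high for Col13a1. Col11a2, a fibrillar chain of cartilage, read 0.195 to 0.263 RPKM in muscle input and 0.833 to 1.10 at 1 d and 0.897 to 0.937 at 4 d of label, below the level filter of those comparisons. Col8a1 read 4.25, 13.0 and 4.15 RPKM in the unfixed cells, and the high library also had the highest Pecam1, an endothelial marker, at 54.9 RPKM against 12.2 and 24.4. The part of endothelial RNA in that value was not tested.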
